A study of Mus musculus with 18 samples.

Results

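Transcript levels of 9 genes of the TGF-beta and activin pathway were followed from chronically irradiated mouse skin to papilloma and carcinoma. The genes were the ligand genes Tgfb1, Tgfb2, Tgfb3 and Inhba, the receptor genes Tgfbr1, Tgfbr2 and Tgfbr3, and the signal transducer genes Smad3 and Smad7. They were taken by their symbols, and all 9 were found among the 14521 named genes measured. In the GRCm38 annotation all are protein-coding, with Tgfb1 on chromosome 7, Tgfb2 on 1, Tgfb3 on 12, Inhba on 13, Tgfbr1 on 4, Tgfbr2 and Smad3 on 9, Tgfbr3 on 5 and Smad7 on 18. mRNA was sequenced from 6 female littermate SKH-1E mice, an outbred strain that lacks the Hairless gene and is prone to tumours under ultraviolet light. From every animal came chronically irradiated skin without a lesion (CHR), a papilloma (PAP), the benign epidermal tumour that can precede cancer, and a squamous cell carcinoma of the skin (SCC), so that n = 6 in each of the 3 groups. All 3 tissues of an animal had received the same chronic low-dose exposure from solar simulators, begun in young adulthood, and were taken after irradiation had stopped. No unirradiated skin was analysed here, so CHR is itself ultraviolet-exposed tissue. All papillomas and carcinomas were of low histological grade and came from the same animals as the skin they were compared with.

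TGF-beta ligands are secreted in a latent form, held by carrier proteins of the matrix and freed by integrins or thrombospondin. The free ligand binds the type II receptor (Tgfbr2), which activates the type I receptor kinase (Tgfbr1), with betaglycan (Tgfbr3) as a coreceptor, whereas activins, dimers of inhibin beta chains such as the product of Inhba, use their own receptors. Both routes lead to phosphorylation of Smad2 and Smad3, which enter the nucleus with Smad4. Smad7 is induced by the same signal and restrains it at the receptor. In skin the pathway is known for halting keratinocyte growth and for driving matrix synthesis by fibroblasts, and it is described both as a brake on early tumours and as an aid to invasion in later ones.

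Levels are given as normalised read counts, that is, reads recovered from the deposited table and divided by the size factor of the library. Recovered depth was 15.4 to 21.0 M reads in the 18 libraries, and no member had fewer than 77 reads in any library. Fold changes are differences of log2(value + 1) on the deposited scale, which understates the change of low genes, and calls were made at an adjusted p under 0.05 in limma with the mouse as a block. Over all genes, 52.6% were called in PAP vs CHR, 9.85% in SCC vs PAP and 38.4% in SCC vs CHR. The samples were pieces of tissue of mixed cell content. All 8 keratinocyte markers examined were above 0 in every library, with summed levels of 302600 to 660600 normalised reads in CHR, 421300 to 885600 in PAP and 144900 to 588600 in SCC. Of them, 5 (Krt5, Krt14, Trp63, Dsg3 and Itga6, genes of basal or lower-layer keratinocytes) rose and Krt10, a keratin of differentiating cells, fell in PAP vs CHR. The same 5 rose and Krt1 and Krt10 fell in SCC vs CHR. The summed level of 8 dermal fibroblast markers was 138600 to 307600 in CHR, 4791 to 161500 in PAP and 17290 to 498500 in SCC, and 7 of the 8 fell in PAP vs CHR. All 8 skeletal muscle markers and all 6 myeloid markers fell as well in that comparison. The carcinoma of mouse 10 stood apart from the other carcinomas, with 404 normalised reads of muscle markers against 73180 or more in the other 5 and with 17290 of fibroblast markers against 120500 or more, so results that change without it are given both ways. Among papillomas, that of mouse 2 stood apart with 28380 normalised reads of muscle markers against 1239 or less in the other 5, and that of mouse 10 with 4791 of fibroblast markers against 53050 or more.

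In papillomas, the ligand gene Inhba and the inhibitor gene Smad7 rose, and the 3 receptor genes Tgfbr1, Tgfbr2 and Tgfbr3 fell. Of the 9 members, 5 were thus called in PAP vs CHR, 2 higher and 3 lower, beside 52.6% of all genes (23.3% higher and 29.3% lower). In SCC vs CHR, 4 members were called, with Inhba and Smad7 higher and Tgfbr2 and Tgfbr3 lower, beside 38.4% of all genes (15.8% higher and 22.7% lower). In SCC vs PAP, Tgfbr1 was the 1 member called, and it was higher, beside 9.85% of all genes (8.75% higher and 1.1% lower). The shares in all 3 comparisons were near the background, so the counts are not in themselves a result about these genes. PAP vs CHR and SCC vs CHR share the CHR libraries, and their values are set side by side without a test of likeness. Groups did not overlap for 3 members (Tgfbr2, Tgfbr3 and Smad7) in PAP vs CHR, beside 33.8% of all genes, for 1 (Tgfbr3) in SCC vs CHR, beside 19.8%, and for 0 in SCC vs PAP, beside 0.413%. The transcripts of Tgfb1, Tgfb2, Tgfb3 and Smad3 passed the threshold in none of the 3 comparisons.

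**Figure D1:**
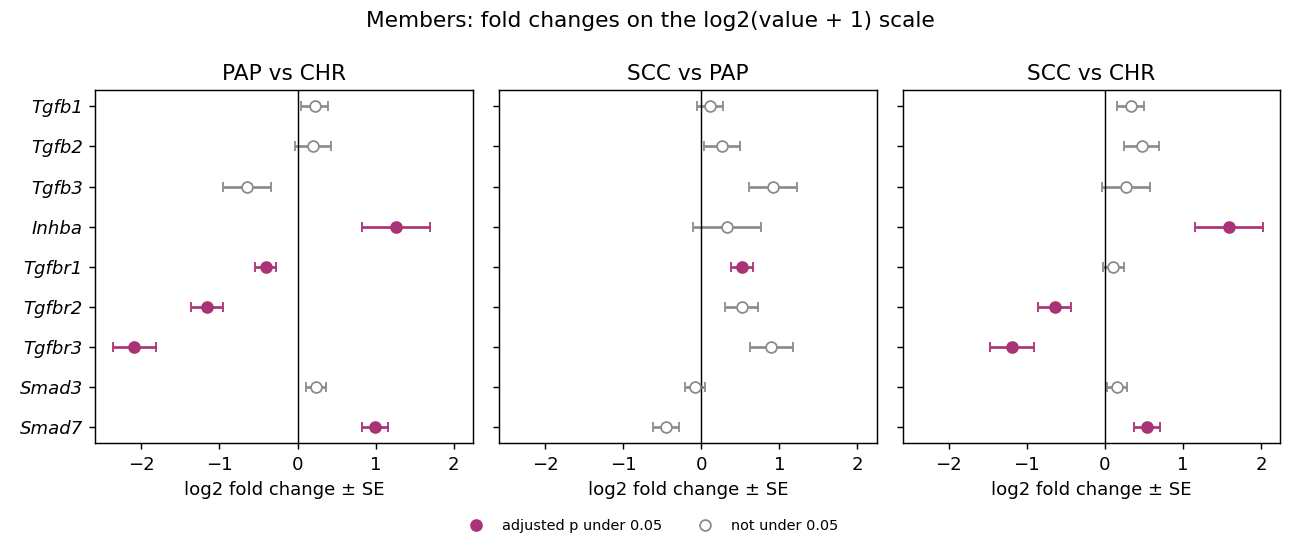
Fold changes of the 9 members in PAP vs CHR, SCC vs PAP and SCC vs CHR on the log2(value + 1) scale, with bars for 1 SE on each side (limma, n = 6 per group, mouse as a block). Filled points have an adjusted p under 0.05, and the widest change is that of Tgfbr3 in PAP vs CHR at -2.09.

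Inhba encodes the inhibin beta A chain, whose dimer is activin A. In CHR its normalised read count was low and even, with a lowest value of 75.2, a median of 120 and a highest of 159. In PAP the lowest, median and highest values were 154, 303 and 1249, and in SCC they were 132, 437 and 1733. The groups overlapped at their edges, and values were spread far more widely in lesions than in skin. The papilloma exceeded the skin of the same animal in 6 of 6 mice, by 1.17-fold in mouse 10 and by 16.6-fold in mouse 2, with a median of 2.48-fold. The log2 fold change in PAP vs CHR was 1.26 ± 0.44 (SE, adjusted p = 0.0273, limma). In SCC vs CHR it was 1.59 ± 0.44 (adjusted p = 0.0123, limma), and 5 of 6 mice were higher, with a median ratio of 4.88. The lesion with more Inhba differed between animals. In mouse 2 the papilloma had 1249 and the carcinoma 237, whereas in mouse 7 the papilloma had 349 and the carcinoma 1733. SCC vs PAP was accordingly not called, at 0.33 ± 0.44 (adjusted p = 0.70, limma). The mouse 10 lesions stayed near skin, with 132 in skin, 154 in the papilloma and 132 in the carcinoma. The papilloma of mouse 2, the highest for Inhba, was also the papilloma with the most muscle marker reads (28380), whose part was not tested. The PAP vs CHR call depended on single animals, since leaving out mouse 2, 3 or 8 gave an adjusted p of 0.0628, 0.0775 or 0.056 in limma, and the SCC vs CHR call had an adjusted p of 0.0553 without mouse 3.

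**Figure D2:**
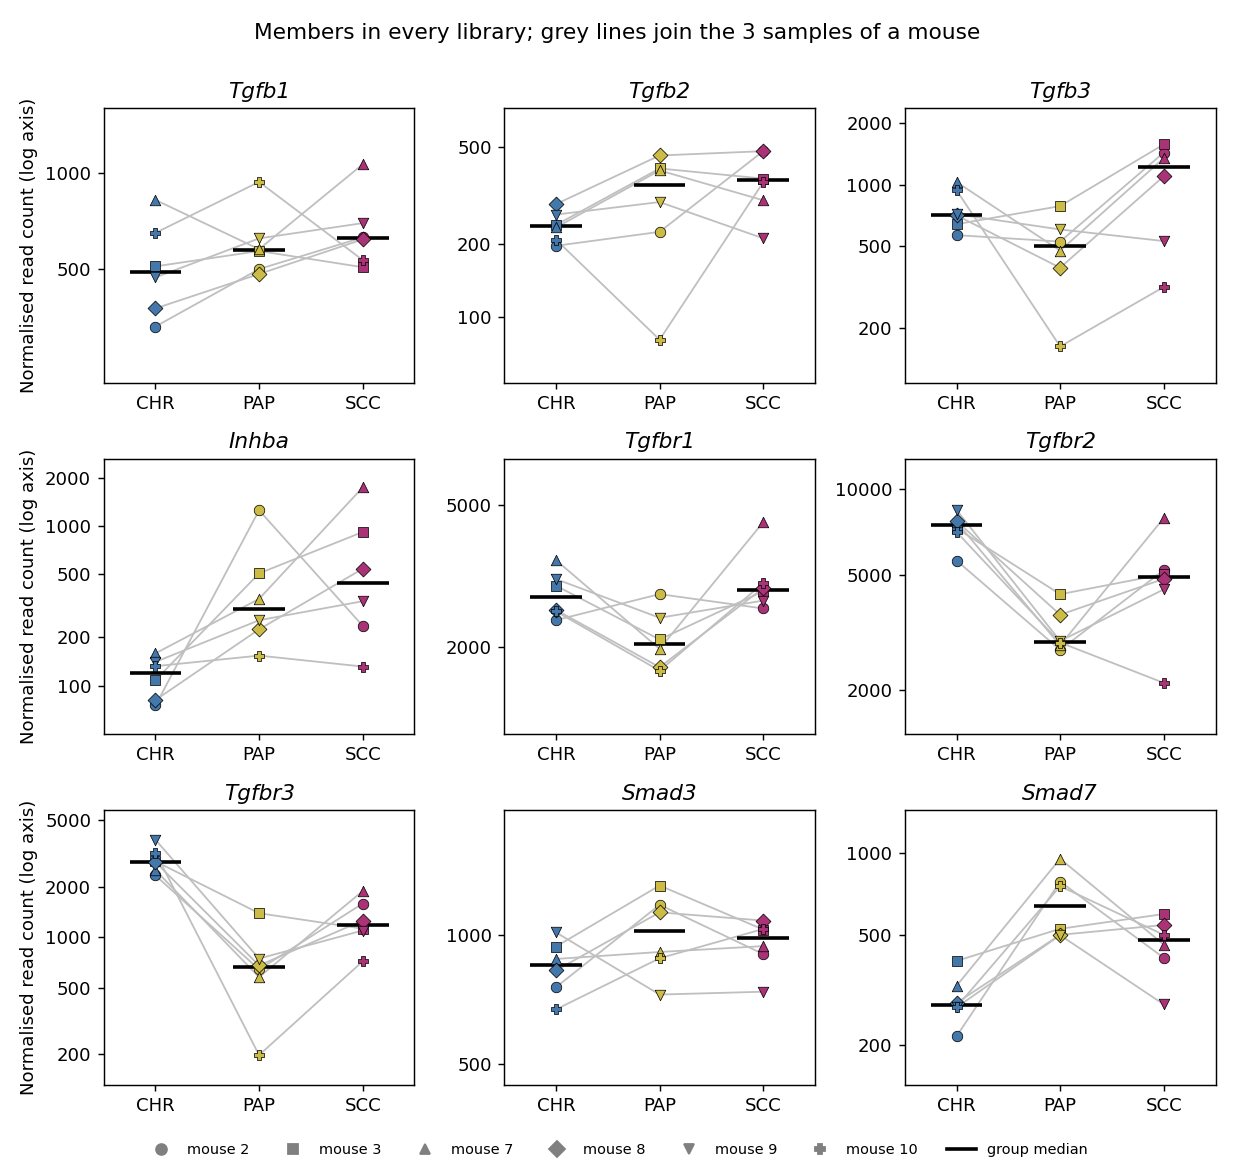
Normalised read counts of the 9 members in each library on log axes, by group (CHR, PAP, SCC), with a symbol per mouse, grey lines joining the samples of a mouse and black bars at the group medians. Tgfbr2 and Tgfbr3 in all 6 papillomas lie below all 6 skin samples, Smad7 lies above them, and Inhba spreads from 154 to 1249 in papillomas.

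Among the TGF-beta genes proper, Tgfb1 encodes the isoform found most widely in adult tissue. Its counts had a lowest, median and highest value of 329, 489 and 823 in CHR, 482, 572 and 937 in PAP, and 506, 623 and 1064 in SCC. These ranges overlapped throughout, and the log2 fold change was 0.22 ± 0.17 in PAP vs CHR (adjusted p = 0.287, limma) and 0.33 ± 0.17 in SCC vs CHR (adjusted p = 0.135, limma). Without the carcinoma of mouse 10 the latter became 0.48 with an adjusted p of 0.0267 in limma. Tgfb2 had lowest, median and highest counts of 196, 237 and 291 in CHR, 80.7, 349 and 462 in PAP, and 211, 365 and 481 in SCC. Its level was higher than in skin in 5 of 6 papillomas and 5 of 6 carcinomas, the exceptions being the papilloma of mouse 10 and the carcinoma of mouse 9, and neither comparison was called (adjusted p = 0.497 and 0.123, limma).

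Tgfb3 differed most between lesion types among the ligands, though not past the threshold. Its lowest, median and highest counts were 568, 713 and 1031 in CHR, 163, 503 and 787 in PAP, and 317, 1224 and 1573 in SCC. The carcinoma exceeded the papilloma of the same mouse in 5 of 6 animals, with a median ratio of 2.36, and the exception was mouse 9. The log2 fold change in SCC vs PAP was 0.92 ± 0.31 (adjusted p = 0.0759, limma), and without the carcinoma of mouse 10 it was 1.10 (adjusted p = 0.0309, limma). The lowest Tgfb3 values, 163 and 317, were those of the papilloma and carcinoma of mouse 10, which also held the lowest fibroblast marker sums of their groups, 4791 and 17290. The part of fibroblast content in the Tgfb3 values was not tested. In bulk tissue, fewer cells of a type and less RNA per cell cannot be told apart.

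Set against each other per kilobase of exon, the ligands kept an order with Tgfb3 first in skin. In CHR, Tgfb3 stood at 227 ± 53.0 normalised reads per kb (mean ± SD, n = 6), Tgfb1 at 104 ± 36.3, Tgfb2 at 41.2 ± 6.06 and Inhba at 18.2 ± 5.27, and the Inhba range did not overlap that of Tgfb2. In PAP, Tgfb3 at 146 ± 61.9 and Tgfb1 at 122 ± 33.1 per kb overlapped. Inhba at 71.4 ± 63.7 per kb overlapped Tgfb2 at 53.9 ± 24.5 there. Within a library, the ratio of Tgfb3 to Tgfb1 per kb was 1.87 to 2.81 in CHR, 0.258 to 2.06 in PAP and 0.887 to 4.63 in SCC, so the balance that was narrow in skin was wide in lesions.

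The start regions of a ligand that changed, a ligand that did not pass the test and a receptor that fell are shown for their difference in base composition. Windows of 6 members (Inhba, Tgfb1, Tgfb2, Tgfbr1, Tgfbr2 and Smad3) were taken from the RefSeq table for GRCm38.p6. The other members were not examined in this way. The 250 bases before the start are printed 5′ to 3′ on the strand of the gene, with motif matches in capitals. The motifs searched on both strands were a TATA box (TATAAA, in 12.4% of 32851 windows of the same length), a GC box (GGGCGG, 32.7%), an AP-1 site (TGANTCA, 6.75%), a CRE (TGACGTCA, 1.55%) and a Smad palindrome (GTCTAGAC, 0.167%). The Inhba window (chr13:16011601-16011850, plus strand) was 43.2% G and C, with 1 TATA match 91 bases before the start and no GC box. The Tgfb1 window (chr7:25686752-25687001, plus strand) was 75.2% G and C, with 5 GC boxes. The Tgfbr2 window (chr9:116175364-116175613, minus strand) was 58.4% G and C and held none of the 5 motifs. Among the windows not printed, that of Tgfb2, a ligand not called either, was 53.6% G and C, with 1 TATA match and no GC box. That of Smad3, likewise not called, was 69.2% G and C with 2 GC boxes. The windows of Tgfbr1 were 74.8% with 2 GC boxes and 52.8% with none of the 5 motifs. These matches describe the letters only.
Inhba: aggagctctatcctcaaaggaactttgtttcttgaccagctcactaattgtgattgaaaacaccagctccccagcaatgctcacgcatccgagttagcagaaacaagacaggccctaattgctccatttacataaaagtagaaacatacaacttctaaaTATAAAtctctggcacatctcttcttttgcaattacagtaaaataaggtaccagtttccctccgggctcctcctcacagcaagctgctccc
Tgfb1: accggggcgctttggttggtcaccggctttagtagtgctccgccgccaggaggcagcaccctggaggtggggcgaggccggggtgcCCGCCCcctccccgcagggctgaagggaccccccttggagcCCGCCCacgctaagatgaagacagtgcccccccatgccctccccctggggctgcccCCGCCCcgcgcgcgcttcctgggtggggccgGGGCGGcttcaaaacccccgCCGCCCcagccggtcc
Tgfbr2: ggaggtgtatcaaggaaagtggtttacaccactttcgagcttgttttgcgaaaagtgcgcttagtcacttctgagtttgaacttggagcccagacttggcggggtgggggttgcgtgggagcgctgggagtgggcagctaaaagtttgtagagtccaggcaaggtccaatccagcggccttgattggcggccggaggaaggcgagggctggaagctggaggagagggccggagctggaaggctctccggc

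The receptor genes were lower in papillomas than in skin, and the coreceptor fell most. Tgfbr3 encodes betaglycan, the coreceptor that presents TGF-beta2 in particular. Its lowest, median and highest counts were 2342, 2828 and 3828 in CHR, 197, 660 and 1392 in PAP, and 717, 1192 and 1888 in SCC. Every papilloma and every carcinoma lay below every skin sample, while papillomas and carcinomas overlapped. Within mice, skin exceeded the papilloma by 2.04-fold to 16.3-fold, with a median of 4.25-fold. The log2 fold change was -2.09 ± 0.28 in PAP vs CHR (adjusted p = 4.3e-05, limma) and -1.19 ± 0.28 in SCC vs CHR (adjusted p = 0.00484, limma). The carcinoma exceeded the papilloma in 5 of 6 mice, but SCC vs PAP had an adjusted p of 0.0566 in limma with a fold change of 0.90 ± 0.28. Without mouse 3, the 1 animal whose papilloma had more Tgfbr3 (1392) than its carcinoma (1125), the adjusted p was 0.0461 in limma.

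Tgfbr2 encodes the type II receptor, which binds the ligand first. Its lowest, median and highest counts were 5630, 7476 and 8430 in CHR, 2754, 2940 and 4299 in PAP, and 2117, 4954 and 7907 in SCC. Papillomas again lay wholly below skin, and carcinomas reached across both ranges. The log2 fold change was -1.16 ± 0.21 in PAP vs CHR (adjusted p = 0.000437, limma), where skin exceeded the papilloma by 1.70-fold to 2.85-fold in the 6 mice. In SCC vs CHR it was -0.64 ± 0.21 (adjusted p = 0.0255, limma), with 5 of 6 mice lower and mouse 7 at a ratio of 1.03. That call rested partly on the carcinoma of mouse 10, the lowest at 2117, without which it stood at -0.44 (adjusted p = 0.0518, limma). It was also lost without mouse 3 (adjusted p = 0.0541), mouse 8 (adjusted p = 0.0696) or mouse 9 (adjusted p = 0.0874) in limma. The same carcinoma weighed on SCC vs PAP, which was 0.52 ± 0.21 (adjusted p = 0.135, limma) with it and 0.72 (adjusted p = 0.0115, limma) without it.

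Tgfbr1 encodes the type I receptor kinase that carries the signal inwards. Its lowest, median and highest counts were 2377, 2753 and 3499 in CHR, 1716, 2036 and 2811 in PAP, and 2562, 2892 and 4468 in SCC. Skin and carcinoma covered a similar range, and papillomas were lower in 5 of 6 mice than either, the exception in both cases being mouse 2. The log2 fold change was -0.41 ± 0.14 in PAP vs CHR (adjusted p = 0.0297, limma) and 0.52 ± 0.14 in SCC vs PAP (adjusted p = 0.0389, limma). Both calls depended on single animals. In limma the first had an adjusted p of 0.079 without mouse 3, 0.0846 without mouse 7, 0.0868 without mouse 8, 0.0784 without mouse 10, and 0.114 when libraries were centred on their medians. The second had an adjusted p of 0.103 without mouse 3, 0.195 without mouse 7, 0.171 without mouse 8, 0.0886 without mouse 10 and 0.063 without the carcinoma of mouse 10.

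Per kb of exon, Tgfbr2 was the highest of the 9 members in skin at 892 ± 115 normalised reads per kb (mean ± SD, n = 6), without overlap with Tgfbr3 at 447 ± 81.5, which in turn overlapped Tgfbr1 at 433 ± 65.9. In PAP, Tgfbr2 at 396 ± 74.3 and Tgfbr1 at 326 ± 64.2 per kb overlapped, and Tgfbr3 had gone to 108 ± 59.3, between the means of Tgfb1 and Inhba. Within libraries, the per-kb ratio of Tgfbr2 to Tgfbr1 was 1.75 to 2.43 in CHR, 0.782 to 1.66 in PAP and 0.560 to 1.62 in SCC, so all 12 lesions lay below all 6 skin samples. The per-kb ratio of Tgfbr3 to Tgfbr2 had a median of 0.504 in CHR, 0.272 in PAP and 0.316 in SCC.

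The receptor values moved together with markers of several cell types. The summed level of 6 myeloid markers was 35390 to 57920 normalised reads in CHR, 1261 to 8551 in PAP and 4382 to 49740 in SCC. The highest carcinoma for Tgfbr1, Tgfbr2 and Tgfbr3 was that of mouse 7, which also held the highest myeloid sum of the carcinomas, 49740. The lowest Tgfbr3 value, 197, was that of the papilloma of mouse 10, with the lowest myeloid and fibroblast sums of all libraries. The part of this cell content in the receptor values was not tested.

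**Figure D3:**
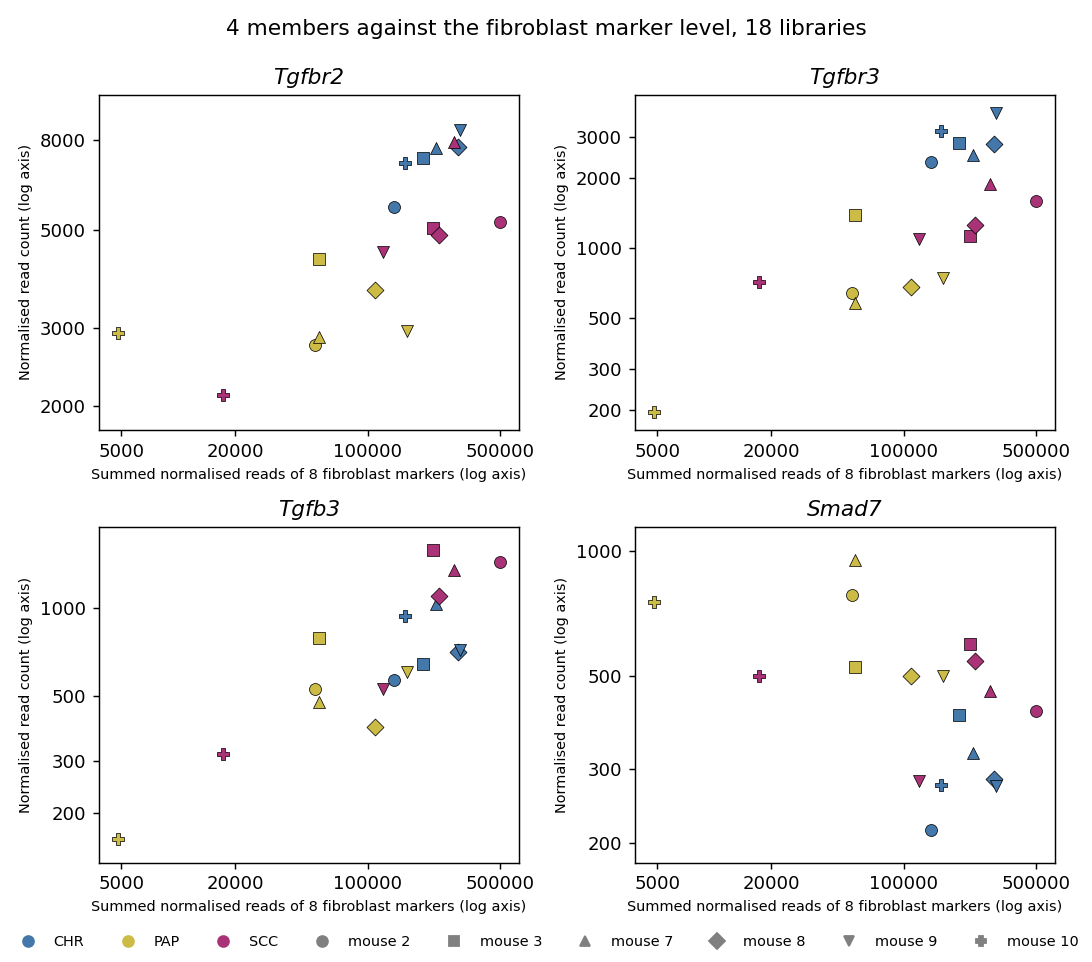
Normalised read counts of Tgfbr2, Tgfbr3, Tgfb3 and Smad7 (vertical) against the summed normalised reads of 8 fibroblast markers (horizontal) in 18 libraries, both on log axes, coloured by group with a symbol per mouse. The papilloma of mouse 10 has the lowest marker sum, 4791, together with the lowest Tgfb3 and Tgfbr3 counts. Tgfbr3 in all 6 skin samples, at 2342 or more, lies above every lesion, and the part of fibroblast content was not tested.

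Smad7, the inhibitory Smad, rose in papillomas. Its lowest, median and highest counts were 215, 279 and 404 in CHR, 501, 642 and 950 in PAP, and 280, 482 and 598 in SCC. Papillomas lay wholly above skin, and carcinomas fell between with overlap on both sides. The papilloma exceeded the skin in 6 of 6 mice by 1.31-fold to 3.65-fold, with a log2 fold change of 0.99 ± 0.17 (adjusted p = 0.00029, limma). The carcinoma exceeded the skin in 6 of 6 mice as well, by 1.03-fold in mouse 9 up to 1.93-fold, with 0.54 ± 0.17 (adjusted p = 0.0218, limma), a call lost without mouse 8 (adjusted p = 0.0635, limma) or mouse 10 (adjusted p = 0.0667, limma). SCC vs PAP was -0.45 ± 0.17 (adjusted p = 0.107, limma). Of 8 keratinocyte markers, 5 rose with Smad7 in both lesion types, Dsg3 by 2.19 ± 0.15 in PAP vs CHR (adjusted p = 6.78e-07, limma). Krt10 fell in both lesion types, Krt1 fell in SCC vs CHR, and Cdh1 was called in neither comparison with skin. Over the 18 libraries, Smad7 and the summed level of the 8 markers had a Pearson correlation of 0.34 on log2 scales. With the summed myeloid and skeletal muscle markers the correlation was -0.73 and -0.68. The part of keratinocyte or other cell content in the Smad7 values was not tested.

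Smad3, the transducing Smad of the branch, had lowest, median and highest counts of 670, 853 and 1015 in CHR, 726, 1022 and 1307 in PAP, and 737, 987 and 1082 in SCC. It was higher than in skin in 5 of 6 papillomas and 5 of 6 carcinomas, with mouse 9 as the exception both times, and neither comparison was called (adjusted p = 0.152 and 0.364, limma). In PAP vs CHR the adjusted p in limma was 0.0168 without mouse 9 and 0.031 with libraries centred on their medians. The per-kb ratio of Smad7 to Smad3 had a median of 0.439 in CHR, 0.831 in PAP and 0.599 in SCC.

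The patterns of single genes across all 18 libraries gave each member its nearest neighbours by the Pearson correlation of log2(value + 1), given here as a description, since the libraries share 3 groups and 6 animals. Smad7 lay closest to Gprc5a (r = 0.958), an orphan receptor of epithelia, and to Dsg3 (r = 0.894), the desmoglein of basal keratinocytes. Tgfbr3 lay closest to Ppap2b (r = 0.968), Syne1 (r = 0.966) and Emr1 (r = 0.964), the last of which is one of the myeloid markers. Tgfb3 lay near Fam114a1 (r = 0.908), the matrix peroxidase Pxdn (r = 0.907) and the laminin chain Lamb1 (r = 0.901), and Tgfb2 near Mrc2 (r = 0.860), Kdr (r = 0.837) and Sec63 (r = 0.815). Inhba lay near Dusp9 (r = 0.893), Smim15 (r = 0.889) and the simple-epithelial keratin Krt18 (r = 0.883). Tgfb1 lay near Zyx (r = 0.893), Tesk1 (r = 0.811) and Sav1 (r = 0.783), and Tgfbr2 near Stat5b (r = 0.947), Dennd4b (r = 0.947) and Naglu (r = 0.946). Tgfbr1 was nearest to Pgpep1l (r = 0.877), Cmtm7 (r = 0.863) and S1pr1 (r = 0.860), and Smad3 to Kif13a (r = 0.818), Hdgfrp2 (r = 0.80) and Col10a1 (r = 0.787). The third neighbour of Smad7 was Nkrf (r = 0.882). Pgpep1l and Col10a1 averaged fewer than 15 normalised reads in every group.

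Other genes of the pathway were taken as lists. A count of calls near the share over all genes is not in itself a result about a list. The lists share genes and are not separate evidence, since Skil and Pmepa1 are both regulators and epithelial targets, Itgb6 is on the latency and epithelial lists, and Fbn1 is on the latency list and on that of matrix genes induced in fibroblasts. Of 6 further ligands of the branch, 4 were measured. Inha, the inhibin alpha chain, rose from a mean of 49.3 ± 15.1 normalised reads in CHR (SD, n = 6) to 117 ± 59.9 in PAP (log2 fold change 0.65 ± 0.16, adjusted p = 0.00366, limma). Inhbb, the inhibin beta B chain, rose in carcinomas against both other tissues, with 661 ± 80.8 in CHR, 622 ± 109 in PAP and 979 ± 255 in SCC, and SCC exceeded PAP in 6 of 6 mice (0.58 ± 0.13, adjusted p = 0.0192, limma). Mstn, the myostatin gene of muscle, fell from a mean of 702 ± 511 in CHR to 2.42 ± 5.07 in PAP (adjusted p = 9.77e-07, limma), beside the fall of all 8 muscle markers, and the part of muscle content was not tested. Gdf11 fell in PAP vs CHR (-0.55 ± 0.16, adjusted p = 0.0107, limma) and was higher in SCC than PAP in 6 of 6 mice (0.96 ± 0.16, adjusted p = 0.00917, limma).

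Of 12 genes for latency and its release, 3 rose and 5 fell in PAP vs CHR, beside 23.3% of all genes higher and 29.3% lower. Nrros, which tethers latent TGF-beta on myeloid cells, averaged 1607 ± 218 in skin (SD, n = 6) and 240 ± 108 in papillomas, with a log2 fold change of -2.53 ± 0.26 (adjusted p = 6.44e-06, limma), while all 6 myeloid markers fell. The carrier genes Fbn1 (-2.83 ± 0.54, adjusted p = 0.000769, limma) and Ltbp2 (-1.60 ± 0.45, adjusted p = 0.00885, limma) fell too, and both were higher in SCC than in PAP, Ltbp2 by 2.19 ± 0.45 (adjusted p = 0.0138, limma). Itgb6, the epithelial integrin chain that frees latent TGF-beta1, rose in SCC vs CHR (0.66 ± 0.22, adjusted p = 0.0298, limma), whereas Itgb8 fell from 2483 ± 743 to 477 ± 372 (-2.58 ± 0.41, adjusted p = 0.000511, limma). Papillomas differed from skin in the same directions, with Itgb6 means of 810 in CHR and 1595 in PAP and an Itgb8 mean of 853 in PAP. Of 4 secreted inhibitors, Dcn and Bgn fell in PAP vs CHR, Dcn from 18920 ± 4607 to 565 ± 573 (-5.51 ± 0.68, adjusted p = 2.49e-05, limma). Dcn is itself one of the fibroblast markers. Fst and Fstl3, which bind activin, passed the threshold in none of the comparisons. Within libraries the per-kb ratio of Inhba to Fst had a median of 0.139 in CHR, 0.516 in PAP and 0.357 in SCC. The per-kb ratio of Inhba to Inhbb, the other activin chain, was 0.0802 to 0.142 in CHR, 0.230 to 1.30 in PAP and 0.128 to 1.19 in SCC, so all 6 papillomas lay above all 6 skin samples.

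Of 7 further receptors, 4 fell and none rose in PAP vs CHR, beside 29.3% of all genes lower and 23.3% higher. Acvr1c, a type I receptor for activin B and nodal, fell from 294 ± 119 in CHR to 8.96 ± 12.0 in PAP (-2.57 ± 0.20, adjusted p = 9.23e-07, limma), beside the fall of 5 of 6 adipocyte markers, whose part was not tested. The endothelial type I receptor gene Acvrl1 fell (-1.13 ± 0.14, adjusted p = 2.28e-05, limma), as did the coreceptor gene Eng (-0.54 ± 0.16, adjusted p = 0.0123, limma), while 3 of 6 endothelial markers fell and 1 rose. The central Smads rose slightly in papillomas, Smad2 by 0.38 ± 0.12 (adjusted p = 0.0208, limma) and Smad4 by 0.32 ± 0.12 (adjusted p = 0.0395, limma), and Smad4 was lower in SCC than in PAP in 6 of 6 mice (-0.48 ± 0.12, adjusted p = 0.0264, limma). Neither Smad2 nor Smad4 was called in PAP vs CHR without mouse 2. Of 13 regulators of Smads and receptors, 6 rose and 1 fell in PAP vs CHR, near the 52.6% of all genes called. The regulators that rose included Smurf1, a ubiquitin ligase that acts with Smad7 (0.84 ± 0.16, adjusted p = 0.000878, limma), and the corepressor Tgif1 (0.84 ± 0.29, adjusted p = 0.026, limma). The ligase Wwp1 was the 1 that fell (-0.86 ± 0.14, adjusted p = 0.000264, limma). Zfyve9, which presents Smads to the receptor, was the 1 regulator called in SCC vs PAP (-0.54 ± 0.14, adjusted p = 0.0307, limma), beside 9.85% of all genes.

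Genes known to be induced by TGF-beta in epithelial cells were mostly higher in lesions. Of 16, 12 rose and 1 fell in PAP vs CHR, with a median log2 fold change of 0.78 beside 0.00 over all genes. The background there was 23.3% rising and 29.3% falling. In SCC vs CHR 11 rose and 1 fell, with a median of 0.66 beside -0.02, and 7 rose when mouse 7 or mouse 8 was left out. With all mice, the background for SCC vs CHR was 15.8% rising and 22.7% falling. Mmp9, a gelatinase, rose by 2.72 ± 0.44 in PAP vs CHR (adjusted p = 0.000235, limma). Vim, the mesenchymal filament gene, was the 1 that fell (-2.78 ± 0.33 in PAP vs CHR, adjusted p = 2.1e-05, limma) and was higher again in SCC than PAP (1.46 ± 0.33, adjusted p = 0.0193, limma). Snai1, a repressor of cell adhesion genes, was higher in SCC than PAP in 6 of 6 mice (0.81 ± 0.19, adjusted p = 0.0193, limma). Its level was low, with means of 18.1 normalised reads in PAP and 70.2 in SCC. Of 8 fibroblast and 6 myeloid markers, 7 and 6 fell in PAP vs CHR, and 4 and 6 rose in SCC vs PAP, where none fell. The part of this cell content in the Vim and Snai1 values was not tested. The cell cycle inhibitor Cdkn1a was lower in SCC than PAP (-0.48 ± 0.14, adjusted p = 0.0458, limma). Among the 8 keratinocyte markers, the 5 of basal or lower-layer cells (Krt5, Krt14, Trp63, Dsg3 and Itga6) were higher in both lesion types than in skin. Krt10 was lower in both, Krt1 was called lower in carcinomas, and Cdh1 was called in neither. Krt5 and Dsg3 were lower in SCC than PAP. The part of keratinocyte content in the changes of this list was not tested.

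Genes induced by TGF-beta in fibroblasts took the opposite course. Of 14, 8 fell and none rose in PAP vs CHR, with a median of -1.03, and 6 rose and none fell in SCC vs PAP, with a median of 1.51 beside -0.02 over all genes. The shares of all genes were 29.3% called lower in PAP vs CHR and 8.75% called higher in SCC vs PAP. The crosslinking enzyme gene Lox fell in papillomas (-2.78 ± 0.60, adjusted p = 0.00179, limma) and was higher in the carcinoma than the papilloma in 6 of 6 mice (2.73 ± 0.60, adjusted p = 0.0171, limma). Col3a1 fell in papillomas (-2.65 ± 0.61, adjusted p = 0.00271, limma), and Tagln, a contractile gene, was higher in SCC than PAP (1.92 ± 0.41, adjusted p = 0.0156, limma). In SCC vs CHR, Acta2 (1.05 ± 0.36, adjusted p = 0.0348, limma) and Cyr61 (0.82 ± 0.23, adjusted p = 0.0142, limma) rose and Timp3 fell (-1.06 ± 0.29, adjusted p = 0.0108, limma). Fibroblast markers followed the same course, and 3 of the 14 genes (Col1a1, Col1a2 and Col3a1) are themselves on the marker list, so fibroblast content and the induction of these genes cannot be told apart. Acta2 is likewise on the list of 6 smooth muscle and pericyte markers, of which 4 fell in PAP vs CHR and 6 rose in SCC vs PAP (3 without mouse 2, 1 without mouse 3 and 0 without mouse 7 or 8). Their summed level was 12600 to 14520 normalised reads in CHR, 1725 to 9179 in PAP and 2502 to 17120 in SCC, and its part in the Acta2 and Tagln values was not tested. The SCC vs PAP count was 10 without the carcinoma of mouse 10, 12 without mouse 10, 3 without mouse 2 and 0 without mouse 3, 7 or 8. The PAP vs CHR count was 5 without mouse 3, 7, 8 or 10.

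**Figure D4:**
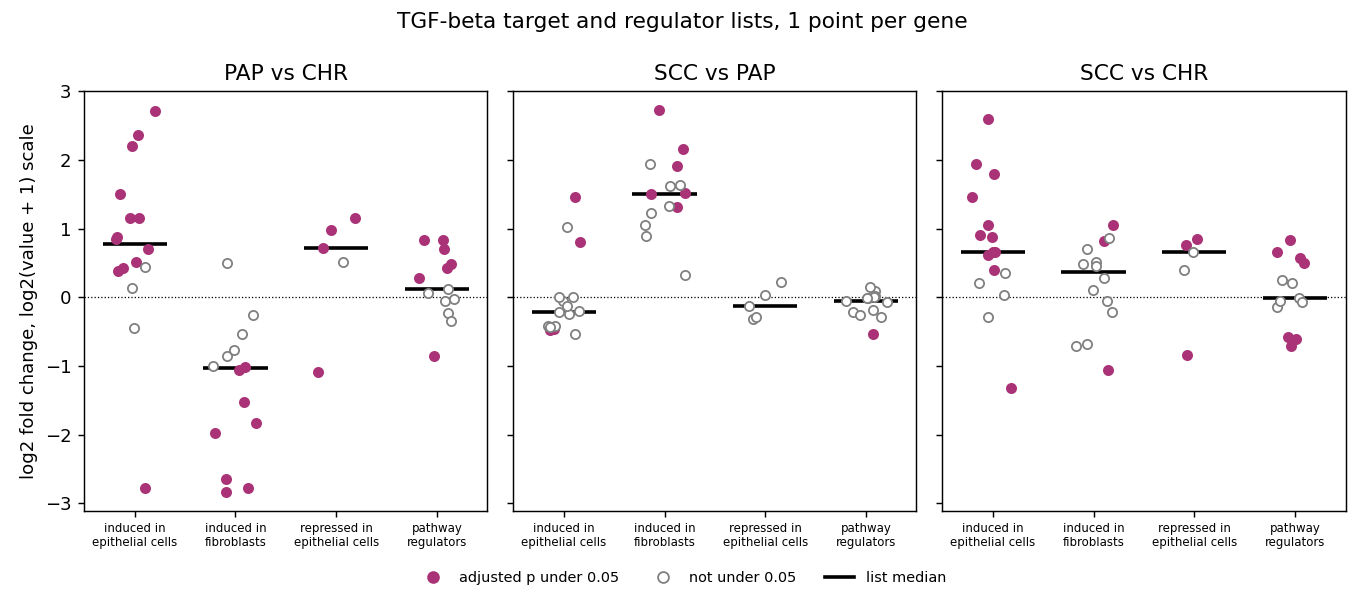
Log2 fold changes, on the log2(value + 1) scale, of genes induced by TGF-beta in epithelial cells (16), induced in fibroblasts (14) and repressed in epithelial cells (5), and of pathway regulators (13), in the 3 comparisons, with 1 point per gene, filled where the adjusted p was under 0.05, and a bar at the list median. The fibroblast list has a median of -1.03 for papilloma against skin and 1.51 for carcinoma against papilloma, and the epithelial list medians of 0.78 and -0.21.

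Genes known to be repressed by TGF-beta in epithelial cells did not fall together. Of 5, 3 rose and 1 fell in PAP vs CHR, 2 rose and 1 fell in SCC vs CHR, and none was called in SCC vs PAP, where none had an unadjusted p under 0.05 either (limma). Over all genes, 52.6% were called in PAP vs CHR, 38.4% in SCC vs CHR and 9.85% in SCC vs PAP. Myc rose in papillomas (1.15 ± 0.15, adjusted p = 3.91e-05, limma) and carcinomas (0.85 ± 0.15, adjusted p = 0.000845, limma), in 6 of 6 mice each time. Cdc25a, a phosphatase of the cell cycle, rose in SCC vs CHR (0.76 ± 0.13, adjusted p = 0.000681, limma). It rose about as much in PAP vs CHR (0.72 ± 0.13, adjusted p = 0.000472, limma), and SCC vs PAP stood at 0.04 ± 0.13. Of the Id genes, Id1 rose in PAP vs CHR (0.98 ± 0.31, adjusted p = 0.017, limma) and Id2 fell (-1.08 ± 0.19, adjusted p = 0.000378, limma).

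In the sister BMP branch, of 14 genes measured, 3 rose and 3 fell in PAP vs CHR, with a median of -0.02. Over all genes, 23.3% were called higher and 29.3% lower in that comparison. The BMP receptor gene Bmpr1b rose (1.40 ± 0.24, adjusted p = 0.000315, limma), and the BMP-binding genes Bmper (-2.13 ± 0.28, adjusted p = 3.83e-05, limma) and Chrd (-1.48 ± 0.23, adjusted p = 0.000183, limma) fell. Both were near the floor in papillomas. Bmper averaged 184 normalised reads in CHR and 9.85 in PAP, and Chrd averaged 99.5 and 7.73. The BMP antagonist gene Grem1 was higher in carcinomas than in papillomas (2.0 ± 0.35, adjusted p = 0.01, limma) and skin (2.13 ± 0.35, adjusted p = 0.000569, limma) in 6 of 6 mice, with means of 623 normalised reads in CHR, 887 in PAP and 3299 in SCC. In the carcinoma of mouse 10, the lowest of its group in fibroblast markers, Bmper was at 3.58, Chrd at 5.37 and Grem1 at 621 normalised reads. The other carcinomas had at least 41.8, 44.6 and 2615. The part of fibroblast content in these values was not tested. Counts of calls in SCC vs PAP for any list depended on single animals, since over all genes leaving out mouse 7 or mouse 8 gave 0 calls (2450 and 2594 genes at an unadjusted p under 0.05, limma). Leaving out mouse 2, 3, 9 or 10 gave 471 to 1995 calls.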

How the data were processed

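mRNA of CHR, PAP and SCC from 6 mice was sequenced. The authors aligned reads to mm10 (per the labels), counted them per gene with HTSeq, scaled the counts by library and stabilized their variance with DESeq2. The deposited values are scores on the linear scale of that transformation, in whole numbers, with 0 reads at 39. The annotation, software versions and use of strand are not given in the sources used here. A step that scales batches to a common median is mentioned in the methods, but the labels name no batch.

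Reads were recovered by inverting the transformation (zero level 39.13, size factors 0.835 to 1.18). Of all values, 97.5% were returned exactly on rounding, as were 100% of values under 100. The inversion was tested on a simulated table. Of 14542 rows, 21 without a symbol (at most 0.236% of any library's total) were left out. All 18 columns were mapped.

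limma 3.58.1 (R 4.3.3) was fitted on log2(value + 1) with group and mouse for all 18 libraries, with Benjamini-Hochberg adjustment over 14521 genes and a threshold of 0.05, two-sided, and was tested on simulated data. The pairing comes from the animal named in the sample titles. The correlation of same-mouse deviations from the group means ran from -0.245 to 0.507. The 9 members, the gene lists and the tests were chosen with earlier results of these data known. Named genes are all members, up to 3 called genes per list and comparison with the largest change (the same direction in at least 5 of 6 mice), and 3 correlated genes per member. Some genes this rule would name are not reported here. Of the list genes, Nodal, Gdf15, Smad9, Nog and Trac were not among the rows. Levels per kb use exon lengths from the reference annotation. The exons of Tgfb2, Tgfb3 and Tgfbr3 overlap unnamed gene models for up to 297 bases, and reads there could be shared. Alternatives were an offset of 10, recovered normalised counts with an offset of 1 or of 8, limma-voom on recovered reads, quantile normalisation, median centring, a filter of 10 reads, a fit without the mouse, a fit of 2 groups, and each mouse left out. A fit without the carcinoma of mouse 10 was chosen after seeing the data.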

Additional observations from a re-analysis of the deposited data

Results flagged for a closer look

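Tgfbr1 in the carcinoma of mouse 7, at 4468 normalised reads, stood far above the other 5 carcinomas, which lay between 2562 and 3015. On the log2(value + 1) scale of the test, its gap to the nearest carcinoma was 0.708 of the range of the group, above the critical value of Dixon's test for 6 samples. It was the 1 such value among 27 groups tested (9 members in 3 groups), and chance flags about 1 in 20 groups. The same carcinoma had the highest myeloid marker sum of its group, 49740 normalised reads against 20230 or less in the other carcinomas, and the part of this content was not tested.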

How the results depend on the processing

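The calls of Tgfbr2, Tgfbr3 and Smad7 in PAP vs CHR and of Tgfbr3 in SCC vs CHR held under all 16 alternatives. Without the block for the mouse (no replicate block), no member call changed, while the number of genes called in SCC vs PAP went from 1430 to 810. A fit of only the 2 groups compared gave 0 genes and 0 members in SCC vs PAP (2830 genes at an unadjusted p under 0.05, limma), with fewer samples to estimate the spread. Median centring gave 0 members in SCC vs PAP. Leaving out each mouse gave 3 to 6 members in PAP vs CHR, 0 to 2 in SCC vs PAP and 2 to 4 in SCC vs CHR, and 0 to 1995 genes called in SCC vs PAP. Without the carcinoma of mouse 10, 2 members and 2084 genes were called in SCC vs PAP. Without mouse 7, the uncalled SCC vs PAP fold changes of Tgfb1 and Inhba changed sign, and over the mice left out they ran from -0.027 to 0.281 and from -0.025 to 0.812. Quantile normalisation called Tgfb2 in PAP vs CHR (0.50, adjusted p = 0.044, limma) and SCC vs CHR (0.64, adjusted p = 0.0196, limma). Quantile normalisation and median centring shifted the median of all genes in PAP vs CHR by 0.165 and 0.141. The share of calls that were higher went from 44.4% to 62.4% and 57.7% in PAP vs CHR, from 88.8% to 68.5% and 78.9% in SCC vs PAP, and from 41% to 57.8% and 52.5% in SCC vs CHR. The cause of these changes was not tested. The members had 77 reads or more in every library, and the part of depth in their calls was not tested.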
